A study of Drosophila melanogaster with 8 samples.

Results

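The insect cuticle is built from chitin fibres and the proteins that bind or surround them, and 96 genes for such proteins were followed in Ras/Src-tumours of Drosophila melanogaster larvae. The members were all gene rows whose current symbol begins with Cpr and a digit (70 CPR genes) or with Twdl (26 Tweedle genes), out of 15682 gene rows. RNA came from dissected tumour tissue of larvae taken late in their last instar. They were fed a high sucrose diet (HSD, with 1.0 M sucrose) until day 14 or a control diet (CD, with 0.15 M sucrose) until day 8, with 4 libraries per diet. Both groups carried the same genotype, ras1G12V;csk-/-, in which clones made by an eyeless-driven FLP recombinase expressed activated Ras1 and GFP under Gal4 and had no Csk, the negative regulator of Src kinases. The tissue was therefore a mosaic of the eye disc in which cells outside the clones did not express the activated Ras1 and were not csk-null, and each library was pooled tissue. No untumoured tissue was among these libraries. Diet and age changed together and cannot be told apart, and each mention of HSD and CD below means HSD at day 14 and CD at day 8. The study describes the libraries of a diet as biologically independent samples, while the labels do not say whether they came from separate cultures.

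CPR proteins carry the Rebers and Riddiford consensus, a stretch that binds chitin, and form the largest family of cuticle proteins in arthropods. Tweedle proteins are a cuticle family found in insects, named for dominant mutations of TwdlD and Tb that make larvae and pupae short and squat. Different members are used in larval, pupal and adult cuticle, in soft and hard regions and in the tracheal lining, and most are switched on for short periods by pulses of the moulting hormone ecdysone. The epithelium of the imaginal discs goes on to secrete the pupal and adult cuticle.

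The HSD libraries held 14109310 to 19963565 counts and the CD libraries 11558860 to 17825108. The first principal component of the log2 CPM of the 9257 genes that passed a filter on low counts held 70.3% of the variance and separated the diets. The second, with 10.3%, set HSD replicate 4 and CD replicate 1 apart from the other libraries. Eye disc markers were present in every library. ey, which specifies the eye field, averaged 123 CPM in HSD and 119 CPM in CD, while 4 of the 6 eye disc markers fell in HSD. CPM are counts per 1000000 counts of a library after TMM scaling, which corrects library totals for composition.

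Many cuticle protein genes had few or no counts in this tissue. Of the 96 members, 31 (32.3%) were listed at 0 in all 8 libraries, against 3385 (21.6%) of all gene rows. A further 21 had counts but never as many as 10 in a library. The members at 0 were 19 of the 70 CPR genes and 12 of the 26 Tweedle genes. A count of 0 allowed up to 0.247 CPM in the shallowest library, taking 3 counts as the limit, which covers counting error only. RpL15, a ribosomal protein gene that every cell uses, was also at 0 in all 8 libraries, so a 0 was not read as an unexpressed gene. Between 33 and 42 members had counts in an HSD library, and between 29 and 39 in a CD library.

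Members counted in HSD alone numbered 19 (14 CPR and 5 Tweedle, 19.8% of the 96), against 6 (6.25%) counted in CD alone. Over all gene rows the shares were 5.32% for HSD alone and 4.50% for CD alone. Of the 19, Cpr50Cb alone was counted in all 4 HSD libraries, and most were counted in a single library, some at 1 count. None of the 6 counted in CD alone was counted in all 4 CD libraries. Many members lie near the counting limit, so the shares of all gene rows are not a like comparison. The HSD libraries were mostly deeper, and the part of depth in these shares was not tested.

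A test across all genes could be made for 22 members (20 CPR and 2 Tweedle), since 9257 genes passed the filter on low counts. An adjusted p under 0.05 in edgeR's quasi-likelihood test (Benjamini-Hochberg, over the whole table) was reached by 13 of the 22 (59.1%), close to the 52.1% of all genes tested that reached it. The direction was uneven, a difference that was not tested and that rests partly on genes that passed the filter through a single diet. 9 members rose in HSD (40.9% of those tested, all of them CPR genes), against 25.9% of all genes tested. Another 4 members fell (18.2%, 2 CPR and 2 Tweedle), against 26.2% of all genes tested. The CPM of the diets did not overlap for 14 of the 22 (63.6%), against 50.5% of all genes tested. Scaled to ribosomal protein genes, which set the median of all genes at -0.35 on the log2 scale and left 21.0% of all calls higher in HSD in place of 49.8%, the members' counts were 7 higher and 5 lower.

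The log2 fold change of HSD over CD (log2FC) had a median of 0.70 over the 20 CPR genes tested, -1.77 over the 2 Tweedle genes and 0.00 over all genes tested. Over the 22 members tested the median was 0.38. It was 0.040 with ribosomal protein scaling, which set that of all genes at -0.35. With a library left out, the median of the members tested ran from 0.12 to 0.69. Members tested had passed the filter through their own counts, some through the counts of a single diet, such as Cpr50Cb through HSD and TwdlT through CD. These figures therefore describe the genes with enough counts and not the families as a whole.

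**Figure D1:**
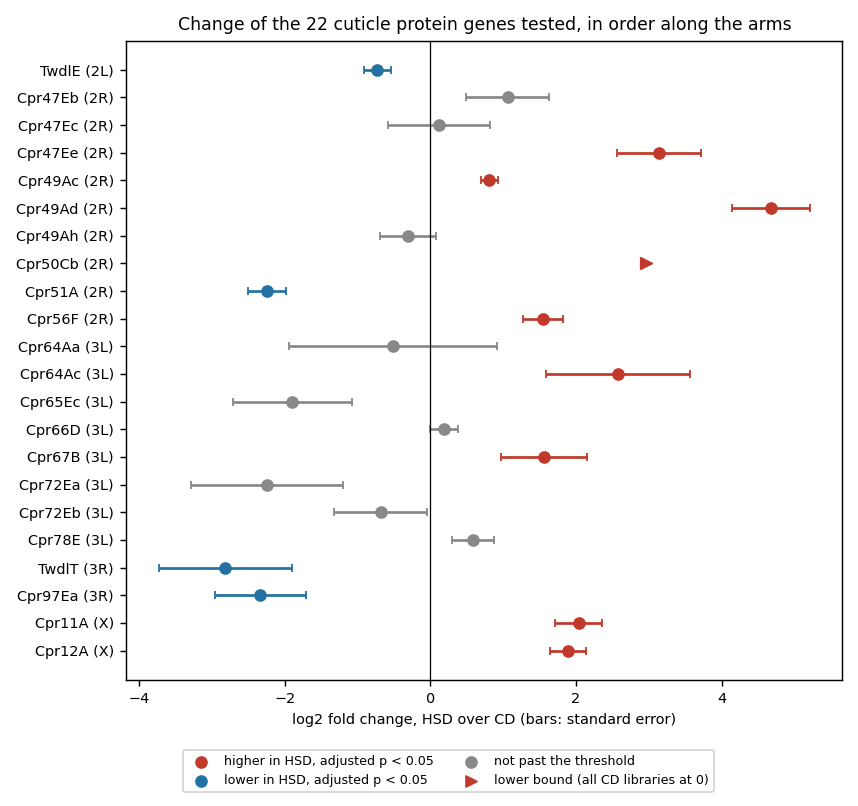
Change of each cuticle protein gene tested. The x axis gives the log2 fold change of HSD over CD, with bars of 1 standard error, for the 22 genes tested, in order along the chromosome arms. Red points mark the 9 genes higher in HSD and blue points the 4 lower in HSD at an adjusted p under 0.05. Grey points did not pass. The triangle marks a lower bound for Cpr50Cb, which had no count in any CD library. The points run from -2.82 for TwdlT to 4.67 for Cpr49Ad.

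Summed over the 70 genes with a Cpr symbol, CPR transcripts reached 312, 308, 312 and 347 CPM in the HSD libraries. In the CD libraries they reached 209, 200, 198 and 207 CPM. CPR genes with older names are not in this sum. Tweedle transcripts went the other way, with 32.6, 28.1, 47.9 and 49.1 CPM in HSD and 75.9, 69.2, 60.4 and 56.1 CPM in CD. For neither set of members did the sums overlap between the diets. The ratio of the mean of HSD to that of CD was 1.57 for CPR and 0.603 for Tweedle genes. These ratios use TMM-scaled CPM and were not computed with ribosomal protein scaling. That scaling set the median of all genes at -0.35 on the log2 scale. TwdlE averaged 36.8 of the 39.4 CPM of Tweedle genes in HSD and 61.0 of 65.4 CPM in CD. Over all members the ratio was 1.34, and it was 1.42 without Cpr49Ac and TwdlE. In the tumour the members' sum was carried by few genes. Cpr49Ac, TwdlE, Cpr12A, Cpr51A and Cpr66D together took 70.2% ± 4.61 of the members' summed CPM in HSD and 80.8% ± 2.21 in CD (SD, n = 4 each). Their order differed. Cpr49Ac held the largest share in both diets, 39.5% in HSD and 30.0% in CD. Cpr12A came second in HSD, with 12.9% against 4.61% in CD, while TwdlE came second in CD, with 10.2% in HSD against 22.6%.

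**Figure D2:**
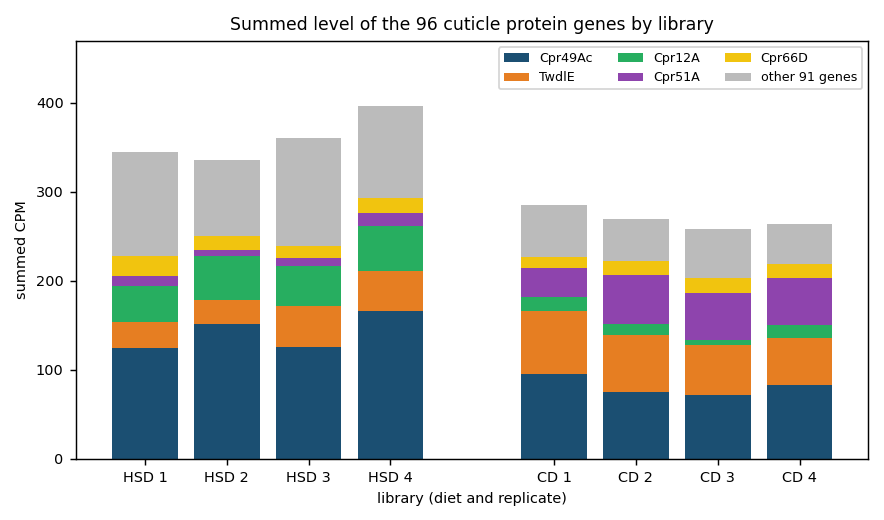
Summed level of the 96 cuticle protein genes. The y axis gives summed CPM and each bar is a library, HSD left and CD right, split into the 5 most abundant members and the other 91 genes. All HSD bars (336 to 397 CPM) stand above all CD bars (258 to 285 CPM). Cpr51A (purple) is a thin band in HSD and a wide one in CD.

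Among members tested and counted in both diets the largest rise was that of Cpr49Ad (FBgn0033726, chromosome arm 2R, 12390896 to 12391699, minus strand, in the BDGP6 annotation), a CPR gene. It had 20.4, 12.1, 28.6 and 11.5 CPM in the HSD libraries and 0.412, 0.226, 0.801 and 1.33 CPM in the CD libraries. The diets were far apart, with the lowest HSD library well above the highest CD library. Its log2FC was 4.67 ± 0.54 (SE), with adjusted p = 3.42e-05, a 25.5-fold rise, and it lay between 4.37 and 5.26 when any 1 library was left out.

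Its neighbour on the opposite strand, Cpr49Ac (FBgn0033725, 2R, 12386666 to 12390057), was the most abundant member. It had 124, 151, 126 and 166 CPM in HSD and 94.6, 74.8, 72 and 82.5 CPM in CD. All HSD libraries were above all CD libraries, but the change was modest, with a mean of 142 ± 20.4 CPM in HSD and 81.0 ± 10.1 CPM in CD (SD, n = 4 each). This gave a log2FC of 0.81 ± 0.12 (SE), with adjusted p = 0.000207. With ribosomal protein scaling the log2FC was 0.46, with adjusted p = 0.0330 by edgeR.

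Cpr47Ee (FBgn0033602, 2R, 11265126 to 11266856, plus strand) had 21.8, 19.1, 15 and 15 CPM in HSD and 0.660, 1.13, 5.20 and 1.01 CPM in CD. CD replicate 3 was higher than the other CD libraries, and still below all HSD libraries. edgeR gave a log2FC of 3.14 ± 0.58 (SE), with adjusted p = 0.000908, or 4.24 without CD replicate 3.

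A pair of members on the X chromosome rose. Cpr11A (FBgn0030394, 12486970 to 12489448, plus strand) had 9.33, 11, 20.2 and 18.5 CPM in HSD and 2.80, 3.27, 4.34 and 3.93 CPM in CD (log2FC 2.03 ± 0.32 SE, adjusted p = 0.000314). Cpr12A (FBgn0030494, 13543643 to 13544907, plus strand) had 40.5, 49.7, 44.2 and 51.1 CPM in HSD and 16.2, 12.1, 6.40 and 15.3 CPM in CD (log2FC 1.89 ± 0.25 SE, adjusted p = 8.49e-05). For both genes every HSD library was above every CD library, and Cpr11A reached its highest level in HSD replicate 3 while Cpr12A was lowest in CD replicate 3.

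Cpr56F (FBgn0034499, 2R, 20288371 to 20291945, minus strand) had 18.5, 9.93, 13.5 and 10.7 CPM in HSD and 3.96, 4.57, 4.40 and 5.05 CPM in CD. The CD libraries were close together and the HSD libraries spread, with no overlap. Its log2FC was 1.55 ± 0.27 (SE), with adjusted p = 0.000659.

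**Figure D3:**
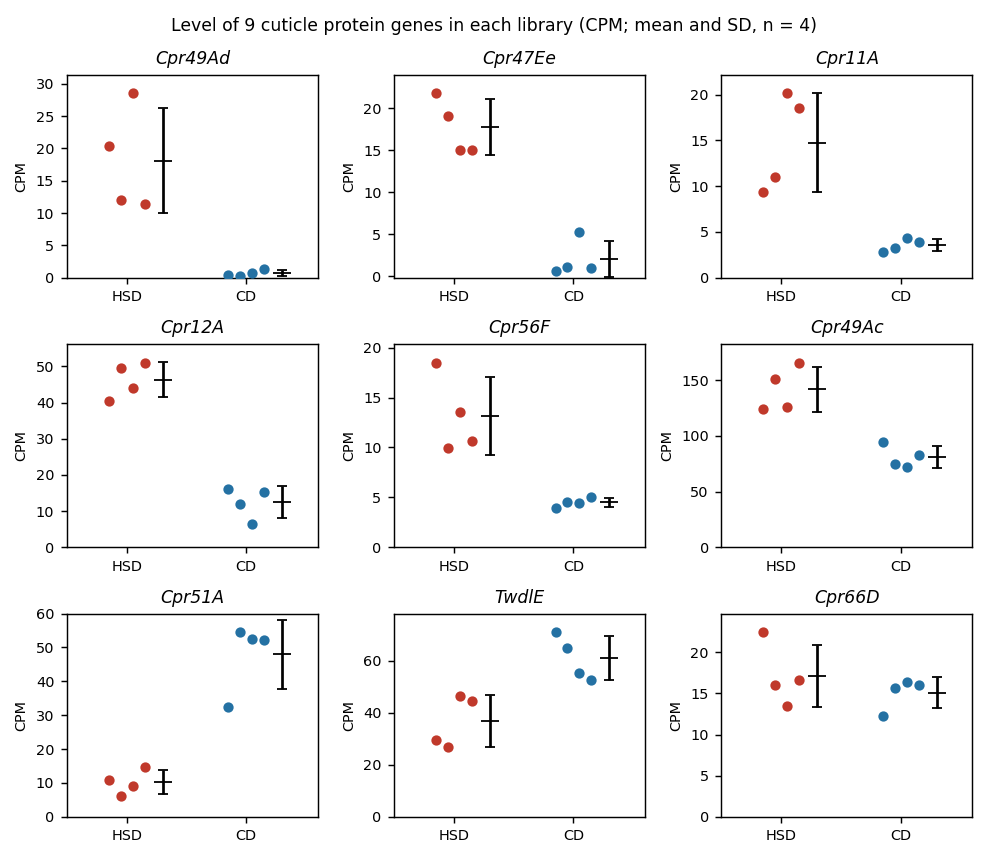
Level of 9 cuticle protein genes in each library. Each panel gives CPM on a linear y axis, HSD left and CD right, with 1 point per library, the mean (dash) and the SD (bar, n = 4). For the 6 genes of the upper panels all HSD points are above all CD points, for Cpr51A and TwdlE all are below, and for Cpr66D the diets overlap.

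At low levels, Cpr50Cb (FBgn0033869, 2R, 13794777 to 13805231, plus strand) was counted in HSD alone. It had 28, 29, 27 and 21 counts in the HSD libraries and none in any CD library. Against a limit of 3 counts per CD library it was at least 7.81-fold higher in HSD (adjusted p = 0.00101). The HSD libraries were close together, at a level where CD showed nothing. Cpr64Ac had 41, 70, 65 and 32 counts in HSD and 1, 19, 12 and 0 in CD (log2FC 2.57 ± 0.99 SE, adjusted p = 0.0487). Cpr67B had 44, 43, 61 and 17 counts in HSD and 7, 17, 11 and 16 in CD (log2FC 1.56 ± 0.59 SE, adjusted p = 0.0453). The calls of Cpr64Ac and Cpr67B stood just inside the threshold and each was lost in 7 of 8 fits without a library, with adjusted p up to 0.114 and 0.158.

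The fall with the smallest adjusted p was that of Cpr51A. This CPR gene (FBgn0033942, 2R, 14512559 to 14515211, minus strand) had 10.9, 6.12, 9.0 and 14.6 CPM in HSD, against 32.6, 54.6, 52.4 and 52.3 CPM in CD. CD replicate 1 was below the other CD libraries, and all HSD libraries were lower still. This gave a log2FC of -2.24 ± 0.26 (SE), with adjusted p = 3.60e-05.

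TwdlE (FBgn0031957, chromosome arm 2L, 7857957 to 7860839, minus strand) held most of the Tweedle transcripts. It had 29.4, 26.9, 46.4 and 44.5 CPM in HSD, against 71.1, 64.8, 55.4 and 52.6 CPM in CD. The diets did not overlap, but HSD replicates 3 and 4 came near the lower CD libraries. edgeR gave a log2FC of -0.73 ± 0.19 (SE), with adjusted p = 0.00692. In the annotation, 968 of the 1346 exon bases of TwdlE overlap lectin-28C, a sugar-binding lectin gene on the opposite strand. The strand setting of the counting is not given in the sources used here, so reads of the 2 genes may not have been told apart. lectin-28C had 37, 30, 20 and 23 counts in HSD and 198, 144, 88 and 105 counts in CD, and its part in the TwdlE result was not tested.

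Another 2 members fell at low levels. Cpr97Ea on arm 3R had 8, 10, 20 and 40 counts in HSD, against 85, 82, 94 and 130 in CD (log2FC -2.33 ± 0.62 SE, adjusted p = 0.00892). TwdlT, also on 3R, had 2, 2, 2 and 17 counts in HSD, against 39, 37, 46 and 44 in CD (log2FC -2.82 ± 0.91 SE, adjusted p = 0.0233). The diets did not overlap for either gene, and HSD replicate 4 was the highest HSD library for both. The TwdlT value was -4.53 without HSD replicate 4, and its call was lost in 4 of 8 fits without a library (CD replicate 3 or HSD replicate 1, 2 or 3), with adjusted p up to 0.0703.

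The other 9 members tested did not pass. Cpr66D (FBgn0052029, chromosome arm 3L, 8640439 to 8643584, plus strand), a component of the corneal lens of the adult eye, had 22.5, 16, 13.5 and 16.6 CPM in HSD and 12.3, 15.6, 16.3 and 16 CPM in CD. The diets overlapped widely. Its log2FC was 0.19 ± 0.19 (SE), with adjusted p = 0.456, and it was -0.17 when libraries were scaled to ribosomal protein genes. Cpr78E had 10.6, 7.73, 14.3 and 16.2 CPM in HSD and 9.32, 7.56, 9.87 and 5.89 CPM in CD (log2FC 0.58 ± 0.29 SE, adjusted p = 0.113). The remaining 7 ran from a log2FC of -2.24 for Cpr72Ea (adjusted p = 0.0955) to 1.06 for Cpr47Eb (adjusted p = 0.142). Cpr65Ec was the one gene among the 9 whose diets did not overlap, with 3, 5, 11 and 1 counts in HSD and 14, 15, 23 and 14 in CD (adjusted p = 0.0733). Its adjusted p was 0.0420 with ribosomal protein scaling and 0.0492 without HSD replicate 3. Missing the threshold does not show that these genes were alike in the diets.

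Many cuticle protein genes lie in arrays of neighbours. With members at most 20 kb apart on an arm taken as a cluster, 13 clusters of 3 or more genes held 65 of the 96 members. CPR genes with older names, such as those of the Lcp65A group, were not placed in clusters. Gaps of 5 kb and 50 kb gave 11 and 14 clusters with 48 and 68 members. Genes in clusters had few counts: 24 of the 65 were at 0 in all libraries and 11 were tested, of which 4 rose and none fell. Of the 31 members outside such clusters, 7 were at 0 in all libraries and 11 were tested, of which 5 rose and 4 fell. Over all genes tested, 25.9% rose and 26.2% fell. Among the rises inside clusters, the call of Cpr64Ac was lost in 7 of 8 fits without a library. The difference between members inside and outside clusters was not tested.

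The Cpr49A cluster of 8 genes on 2R (Cpr49Aa to Cpr49Ah, 38545 bases) held the most transcripts, with a summed 154 to 182 CPM in HSD and 77.1 to 101 CPM in CD. Its 3 members tested differed in direction or call. Cpr49Ac and Cpr49Ad rose, while Cpr49Ah had 4.96, 2.74, 5.11 and 2.95 CPM in HSD and 6.35, 4.68, 4.34 and 4.25 CPM in CD (log2FC -0.31, adjusted p = 0.527). Cpr49Ab was at 0 in every library. Cpr49Aa did not pass the filter, with 33, 45, 23 and 0 counts in HSD and none in CD. HSD replicate 4 alone among the HSD libraries had no count of it. Cpr49Ag, also below the filter, had 37, 7, 5 and 22 counts in HSD and 0, 4, 0 and 4 in CD, and its CPM did not overlap between the diets.

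In the Cpr47E cluster of 7 genes (Cpr47Ea to Cpr47Eg, 2R, 26695 bases) Cpr47Ee was the only one of 3 genes tested to pass. Cpr47Eb had 13.9, 5.21, 2.67 and 6.49 CPM in HSD and 4.37, 1.13, 4.27 and 3.77 CPM in CD. The diets overlapped for Cpr47Eb, with the highest value in HSD replicate 1. Cpr47Ec had at most 27 counts in a library and a log2 fold change of 0.12 (adjusted p = 0.902), which turned negative under other settings. Cpr47Ea, Cpr47Ed and Cpr47Ef were counted in HSD alone, at 4 counts or fewer over all libraries.

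**Figure D4:**
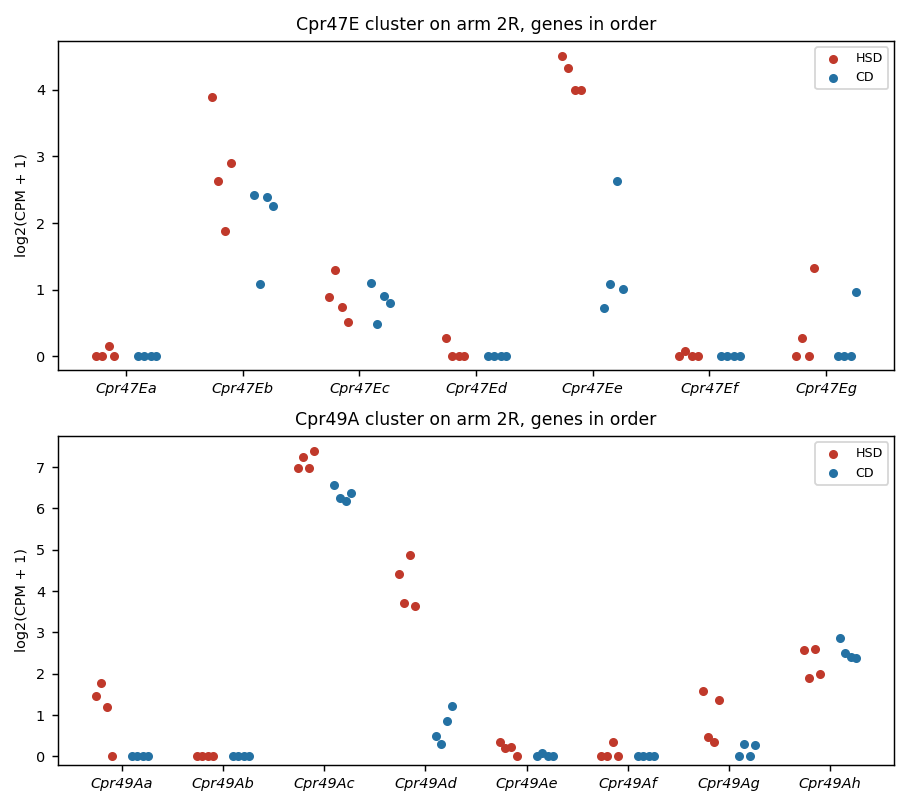
Level of each gene in 2 clusters on arm 2R. The y axis gives log2(CPM + 1) and genes run in order along the arm, with 1 point per library, HSD left (red) and CD right (blue) of each gene name. In the Cpr47E cluster Cpr47Ee alone separates the diets. In the Cpr49A cluster Cpr49Ac and Cpr49Ad separate them, Cpr49Ag does so narrowly at low counts, and Cpr49Ah does not.

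The other clusters were low. In the Cpr64A cluster on 3L, 1 of 2 genes tested rose (Cpr64Ac), and the sum was 3.10 to 5.39 CPM in HSD and 0.478 to 3.61 CPM in CD. In the Cpr72E cluster on 3L neither gene tested passed, and the sum was 0.698 to 2.50 CPM in HSD and 1.81 to 5.85 CPM in CD. Counting members alone, the Cpr62B, Cpr65A, Cpr67F, Cpr76B and Cpr78C clusters had no gene tested and no library above 1.23 CPM in sum. Cpr67Fa1 and Cpr67Fa2, and Cpr65Ax1 and Cpr65Ax2, are near-identical pairs between which reads can be split, and none of these genes was tested.

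Among Tweedle genes, the array of 12 on 3R (TwdlM to TwdlD) is the largest cluster of all members. 9 of its genes were at 0 in every library, and its sum was at most 0.722 CPM in HSD and 0 in CD. Tb, the family's member with an older name, was also at 0 in all libraries. The 4 genes from TwdlU to TwdlV on 3R had a sum of 0.0537 to 1.66 CPM in HSD and at most 1.97 CPM in CD. Of the 26 Tweedle genes only TwdlE and TwdlT passed the filter. Twdlbeta, on 2R, did not, with 38, 4, 6 and 17 counts in HSD and 0, 0, 0 and 2 in CD.

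Members with counts that could not be tested numbered 43. None exceeded 45 counts in a library, 35 were at 0 in 4 or more libraries and 17 were counted in 1 library. Counts of these genes jumped between libraries of a diet. Of the 22 with at least 10 counts in some library, 18 were at 0 in another library of that diet. Cpr67Fb had 17 counts in HSD replicate 4 and none elsewhere, and Cpr92A had 15 in CD replicate 1 and none elsewhere. Cpr100A had 0, 4, 0 and 7 counts in HSD and 38, 15, 24 and 7 in CD.

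Set per kilobase of exon, so that genes can be compared with each other, cuticle protein genes stood below most genes of the tumour. The median member tested had 6.31 CPM per kb in HSD and 2.49 CPM per kb in CD, while the median gene tested had 15.9 CPM per kb in HSD and 16 CPM per kb in CD. Above the median gene stood 5 members in HSD and 4 in CD. By this measure Cpr49Ac led in HSD, with 67.0 CPM per kb against 38.2 in CD, followed by Cpr12A with 54.1 against 14.5. In CD Cpr51A led, with 15.6 CPM per kb in HSD against 73.6, followed by TwdlE with 27.3 against 45.3. Cpr49Ad had 26.5 CPM per kb in HSD and 1.01 in CD.

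Other genes of the cuticle were counted from lists. Of 29 CPR genes with older names, 8 were tested, of which 2 rose and 2 fell, with a median log2FC of -0.22. All 29 summed to 20.1 to 44.2 CPM in HSD and 23.0 to 63.9 CPM in CD, so their sums overlapped between the diets. Pcp, a pupal cuticle protein gene, had 15.3, 9.66, 18.5 and 8.00 CPM in HSD and 1.98, 5.08, 3.40 and 4.30 CPM in CD (log2FC 1.79, adjusted p = 0.00216). Lcp65Ag2, a larval cuticle protein gene, had 8.21, 5.69, 7.0 and 12.6 CPM in HSD and 1.15, 1.02, 2.07 and 2.92 CPM in CD (log2FC 2.21, adjusted p = 0.00197). The diets did not overlap for either gene. Lcp1, another larval cuticle protein gene, varied within each diet, with 0, 0, 7 and 105 counts in HSD and 350, 88, 50 and 37 in CD (adjusted p = 0.205).

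Of 9 peritrophin-type cuticle proteins, which bind chitin through another domain, 4 were tested: obst-E rose and Gasp, obst-A and obst-B fell. obst-E had 97.7, 103, 60.1 and 37.8 CPM in HSD and 6.68, 12.4, 12.2 and 11 CPM in CD (log2FC 2.81 ± 0.32 SE, adjusted p = 3.12e-05). Gasp, more abundant, averaged 269 CPM in HSD and 515 CPM in CD (log2FC -0.94, adjusted p = 2.42e-06). Genes of chitin synthesis and modification had 7 of 12 higher and 2 lower in HSD, with a median of 0.79. Among them verm and serp, chitin deacetylases, had log2 fold changes of 0.75 and 1.15, kkv, the chitin synthase, 0.84, and the chitinase gene Cht10 -0.84.

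Of 6 enzymes of cuticle hardening and pigment tested, 1 rose and 3 fell. ple, the tyrosine hydroxylase, had a log2 fold change of 1.33 and y, needed for black pigment, one of -1.82, while Ddc, dopa decarboxylase, did not pass (-0.56, adjusted p = 0.122). Of 12 ecdysone-timed transcription factors tested, 3 rose and 9 fell, with a median of -1.24. crc and Hr39 rose, with log2 fold changes of 0.52 and 0.48, and Eip75B fell by 1.58 and EcR, the ecdysone receptor, by 0.36 on the log2 scale. Of 4 factors of cuticle-forming epithelia, ovo, vvl and trh rose and grh fell.

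**Figure D5:**
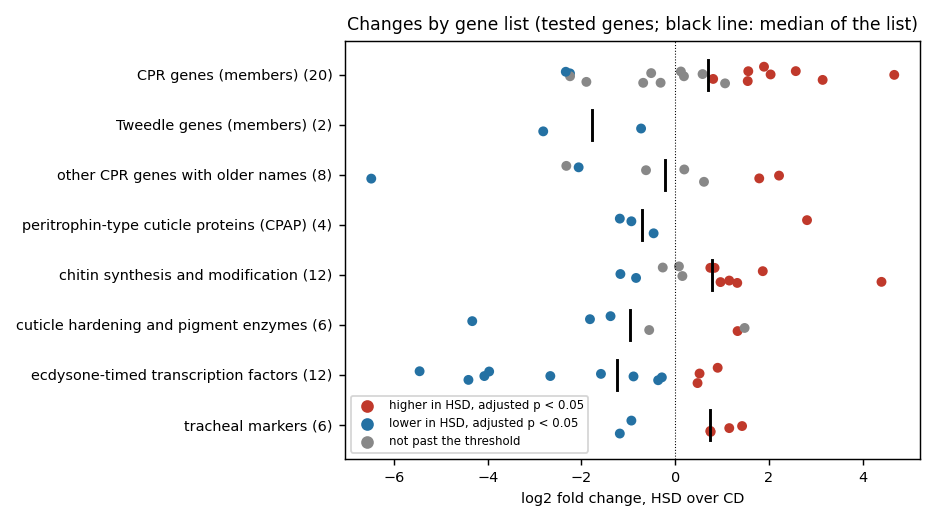
Change by gene list. The x axis gives the log2 fold change of HSD over CD, with 1 point per gene tested and a black line at the median of each list. The number beside each name is the number of genes tested. Cpr50Cb is not drawn, since only a lower bound is known. CPR genes have a median of 0.70 and ecdysone-timed transcription factors one of -1.24, and every list shown except the Tweedle genes holds genes that passed in both directions.

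Markers of other tissues that make cuticle were counted as well. All 6 tracheal markers were counted in every library, and their sum was 2371 to 3158 CPM in HSD and 2020 to 2273 CPM in CD. 4 of them rose and 2 fell, and trh, the factor that defines tracheal cells, had 36.6, 39.1, 13.9 and 27.1 CPM in HSD and 13.7, 10.5, 10.5 and 8.87 CPM in CD. The genes verm, serp, Gasp and obst-A are on both the tracheal list and the cuticle lists, and trh is also among the factors of cuticle-forming epithelia. On the epidermal list, ple, Ddc and grh are also on the lists of hardening enzymes or epithelium factors. Of 6 epidermal markers, 5 were tested, 2 rose and 1 fell, and the sum was 212 to 256 CPM in HSD and 241 to 286 CPM in CD. The part of tracheal or epidermal cells in the changes of cuticle protein genes was not tested. In bulk tissue fewer cells of a type and less RNA per cell cannot be told apart.

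Of 6 fat body markers none rose and 1 fell, and of 6 haemocyte markers none rose and 1 fell. Fat body markers summed to 2997 CPM in HSD replicate 4, against 774 to 1283 CPM in the other HSD libraries. Their sum was 2039 CPM in CD replicate 1, against 1291 to 1382 CPM in the other CD libraries. Haemocyte markers summed to 224 CPM in HSD replicate 4, against 107 to 140 CPM in the other HSD libraries and 134 to 171 CPM in CD. The part of such tissue in the cuticle protein counts was not tested. Neuronal markers fell in 5 of 5 genes, with a sum of 88.3 to 148 CPM in HSD and 1598 to 1994 CPM in CD. Of 5 glial markers 1 rose and 3 fell, of 8 muscle markers 2 rose and 5 fell, and all 3 prothoracic gland markers tested fell. Salivary gland glue genes, of which none of 7 passed, summed to 13.1 to 304 CPM in HSD and to 4710 CPM in CD replicate 1 against 5.95 to 19.8 in CD replicates 2 to 4. When both libraries that stood apart (HSD replicate 4 and CD replicate 1) were left out, 9 members were higher and 4 lower. Cpr64Ac was then lost and Cpr49Aa gained.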

How the data were processed

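The authors sequenced stranded mRNA libraries as paired reads. Per the submitters' processing notes and the methods, they used CASAVA 1.8.4, trimmed reads with Trim Galore 0.4.4, aligned them to dm3 with TopHat2 2.0.11 and used featureCounts. The deposited table held raw read counts per gene with no normalisation. The strand setting and the handling of multiply aligned reads were not given in the sources used here. Symbols were found for 15002 of 15682 identifiers. Positions and exon lengths came from BDGP6, a different build from the alignment, and no coordinate was converted.

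The main test was that of edgeR 4.0.16 under R 4.3.3 (filterByExpr, TMM, quasi-likelihood test on diet, two-sided, Benjamini-Hochberg over all 9257 genes tested). A call is an adjusted p under 0.05. The standard error was the log2 fold change divided by the square root of F. CPM used TMM-scaled library sizes. The fit was tested on simulated data first. Alternatives were DESeq2 1.42.0, limma-voom (limma 3.58.1), other scalings and filters, a stricter threshold, replicate number as a block and each library left out, and, chosen after seeing the data, 2 libraries left out. Intervals from a limit of 3 counts cover counting error only, since PCR reads without identifiers need not be separate molecules. Libraries of a diet differed beyond sampling noise (chi-square per degree of freedom at least 11.5).

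Members, clusters and gene lists were chosen with earlier results of these data known. Of 142 listed genes 134 matched a current symbol. Full values are given for members past the threshold whose higher diet averaged 10 CPM or more (at most 10 rises and 10 falls, of which 6 and 2 met the rule) and for the 5 most abundant members. Of any other list at most the 4 most abundant genes are named with values, with trh, ey and the genes under other observations as exceptions. Those genes and the other members named were chosen after their values were seen. A search of member proteins for the chitin-binding consensus was planned and not run, and no sequence is shown.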

Additional observations from a re-analysis of the deposited data

Results flagged for a closer look

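Within a diet, 1 library stood apart from the other 3 by Dixon's ratio in 4 of 44 groups of values, where chance gives about 2.2. The ratio is the gap to the nearest library over the whole range, set against the 95% critical value for 4 values. It was taken on log2 CPM with a prior count of 2, so it differs from a ratio of the plain CPM given here. Cpr51A in CD had a ratio of 0.916, with 32.6 CPM in CD replicate 1 against 52.3 to 54.6 CPM in the other CD libraries. All HSD libraries were still lower, at 6.12 to 14.6 CPM. Cpr66D in CD had a ratio of 0.843, again through CD replicate 1, with 12.3 CPM against 15.6 to 16.3 CPM. Cpr47Eb in CD had a ratio of 0.888, with 1.13 CPM in CD replicate 2 against 3.77 to 4.37 CPM. TwdlT in HSD had a ratio of 0.989, with 1.23 CPM in HSD replicate 4 against 0.107 to 0.111 CPM in the other HSD libraries.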

How the results depend on the processing

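The counts of 9 members higher and 4 lower in HSD moved by more than 1.5 times in 1 setting. A minimum of 10 counts in every library left 10 members tested, with 4 higher and 2 lower. Leaving out each library in turn gave 7 to 9 higher and 4 to 6 lower. With replicate number as a block there were 8 higher and 4 lower, Cpr67B being lost (adjusted p = 0.156). Replicate numbers did not pair the libraries, since the correlations of same-numbered libraries' deviations ran from -0.15 to 0.07, so a call lost under the block is not read as a weaker effect. Over single genes and settings, 340 values kept their direction and call, 30 lost the call, 6 gained one and 8 reversed, none of a called gene. The reversed values were those of Cpr66D with ribosomal protein scaling (-0.17), of Cpr47Ec with total counts (-0.023) and with ribosomal protein scaling (-0.23), and of Cpr64Aa with limma-voom (0.82) and with the replicate block (0.41). With a library left out, Cpr47Ec ran from -0.26 to 0.37 and Cpr64Aa from -1.05 to 1.34, and the causes were not tested. Total counts moved the median of all genes by -0.13 and left 38.1% of calls higher. With every counted gene kept, there were 9 higher and 6 lower: Cpr49Aa, Twdlbeta, Cpr31A and Cpr92F were gained, Cpr64Ac and Cpr67B lost. Without HSD replicate 4 and CD replicate 1 there were 9 higher and 4 lower. Cpr72Ea fell in DESeq2 (adjusted p = 0.0373) and limma-voom (adjusted p = 0.0433). Depth limits the 43 members with counts that could not be tested.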

Other observations

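Some cuticle genes outside the CPR and Tweedle symbols, chosen after their values were seen, also differed between the diets. reb, which is needed for chitin deposition, had 897, 892, 847 and 79 counts in HSD and 0, 33, 24 and 62 counts in CD, a log2FC of 4.40 ± 0.81 (SE), with adjusted p = 0.000901 by edgeR. HSD replicate 4 was far below the other HSD libraries and above every CD library in both counts and CPM. Lcp65Ad, a larval cuticle protein gene of the CPR family, had 0, 1, 0 and 1 counts in HSD and 64, 58, 35 and 44 counts in CD. Against a limit of 3 counts per HSD library it was at least 18.8-fold lower in HSD (adjusted p = 0.000185). Lcp65Ag2, a relative in the Lcp65A group, rose. Among ecdysone-timed factors, the nuclear receptor genes Hr3 and Hr4 averaged 0.731 and 2.55 CPM in HSD and 31.8 and 54.1 CPM in CD, and Eip93F averaged 11.5 CPM in HSD and 191 CPM in CD, while ftz-f1, another nuclear receptor gene of the same timed series, rose to 132 CPM in HSD, against 70.6 CPM in CD.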
